A study of Mus musculus with 4 samples.

Results

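Myelin genes were followed across spatial transcriptomes of mouse brain after focal cortical injury. The 9 genes, Mbp, Mobp, Mag, Mog, Cnp, Mal, Cldn11, Ermn and Opalin, were taken by name from the gene list of the files. No cut-off on a measured value was used, but earlier results of these data were known when they were chosen. They are 9 of 32285 genes listed (23415 of these had at least 1 UMI over tissue). All 9 were detected in every slice and passed every filter on low counts. Their levels are given as UMIs (unique molecular identifiers, each counting 1 captured transcript) per 10000 UMIs of all genes.

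RNA was read on 4 Visium capture areas, in which each barcoded spot binds the polyadenylated RNA of the tissue patch lying on it. Each area held 2 pieces of tissue, and each piece was taken as 1 slice from 1 mouse. The groups were a wild-type (WT) slice at rest, a WT slice 2 days post-injury (dpi), 2 WT slices at 7 dpi, 2 WT slices at 21 dpi, and 2 slices at 21 dpi from Cthrc1(creER); R26(DTA) animals, here called deleter. The injury (PT) was photothrombotic, with light over the somatosensory cortex after Rose Bengal dye, and every slice except that at rest carried it. In deleter mice, tamoxifen switches on a toxin in cells that use Cthrc1, a gene of myofibroblasts and not of oligodendrocytes. The study's methods describe this deletion as undetectable in the spatial data, so the deleter slices served as a further pair at 21 dpi more than as a model of lost myofibroblasts. The methods give mice of both sexes, 7 to 21 weeks old unless stated otherwise. The labels do not tell the slice at rest from that at 2 dpi on their shared area, and the smaller piece was taken as rest. The labels give no further replicate information. P-values measure only the spread between the slices in a fit, shared over its groups, with 2 slices in each group tested.

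Slices held 827 to 1726 spots over tissue. Their total UMIs ranged from 11332780 to 23677298 per slice. The median spot held 12447 to 16158 UMIs in 7 slices, and 2633.5 in the slice at 2 dpi, which stood apart from the others. Summed over a slice, each myelin gene had at least 732 UMIs and the 9 together had 65389 to 129319, so that counting error was small for whole slices, and exact Poisson 95% intervals given below cover that error only. Both 7 dpi slices and deleter slice 1 carried Xist and both 21 dpi WT slices carried the Y-linked Ddx3y and Eif2s3y, so time, sex and capture area cannot be told apart between 7 and 21 dpi.

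Myelin is the lipid-rich sheath that oligodendrocytes wrap around axons of the central nervous system, and it is most abundant in white matter tracts such as the corpus callosum beneath the cortex. The members cover the parts of the sheath. Mbp, which holds the cytoplasmic faces of the membrane together, and Mobp, a small basic protein, belong to compact myelin, and the mRNA of both is carried out into the processes of the cell. Mal is a membrane proteolipid, Mag an adhesion molecule facing the axon, and Mog a protein of the outermost surface. Cnp is an enzyme that keeps cytoplasmic channels of the sheath open, and Cldn11 forms the tight junctions between myelin wraps. Ermn is an actin-binding protein of mature oligodendrocytes, and Opalin a transmembrane glycoprotein of the same cells. Cldn11 is also made outside the lineage, by the barrier layer of the meninges.

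Mobp lies at chr9:120149707-120181484 on the plus strand and Mag at chr7:30899176-30914873 (minus). Mog lies at chr17:37010743-37023398 (minus), Cnp at chr11:100574904-100591729 (plus) and Mal at chr2:127633226-127656695 (minus). Cldn11 lies at chr3:31149920-31164324 (plus), Ermn at chr2:58045113-58052864 (minus) and Opalin at chr19:41061710-41077113 (minus), all on GRCm38, the build behind mm10. The members thus share no neighbourhood, and of these 8 only Mal and Ermn share a chromosome.

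Since the members moved together over the tissue, their promoters were searched for the letters that 2 regulators of myelination are known to bind, SOX10 (ACAAAG, or CTTTGT on the other strand) and MYRF (CTGGNAC, or GTNCCAG). RefSeq promoters on GRCm38.p6, from 250 bases before to 50 after each start, were found for 8 members (10 promoters, some overlapping). SOX letters stood in 5 of these 10 promoters, those of Mobp, Mag, Cnp and Opalin, and in 18.7% of all 32851 promoters. MYRF letters stood in 5 of 10, those of Mag, Cnp, Mog and Opalin, and in 19.3% of all promoters. By gene, each motif stood in 4 of the 8 members, as 2 overlapping Mag promoters hold the same matches. The 4 promoters below are shown because they hold the SOX letters, with both motifs in capitals, and none overlaps another of the 4. They are Mobp at chr9:120149492-120149791 (plus strand) with 6 SOX matches, Cnp at chr11:100574689-100574988 (plus), Mag at chr7:30914814-30915113 (minus) and Opalin at chr19:41077064-41077363 (minus). The promoter of Cldn11, at chr3:31149670-31149969 (plus), is added because this member behaved unlike the rest, and it holds neither motif in this window. The promoters of Mal and Ermn hold neither motif as well, so this absence is not particular to Cldn11.
Mobp: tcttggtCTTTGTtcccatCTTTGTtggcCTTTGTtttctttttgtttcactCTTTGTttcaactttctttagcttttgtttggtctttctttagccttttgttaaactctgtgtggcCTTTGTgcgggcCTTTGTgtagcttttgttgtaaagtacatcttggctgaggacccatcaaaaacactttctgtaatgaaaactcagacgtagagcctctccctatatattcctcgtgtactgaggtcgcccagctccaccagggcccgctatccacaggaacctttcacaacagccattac
Cnp: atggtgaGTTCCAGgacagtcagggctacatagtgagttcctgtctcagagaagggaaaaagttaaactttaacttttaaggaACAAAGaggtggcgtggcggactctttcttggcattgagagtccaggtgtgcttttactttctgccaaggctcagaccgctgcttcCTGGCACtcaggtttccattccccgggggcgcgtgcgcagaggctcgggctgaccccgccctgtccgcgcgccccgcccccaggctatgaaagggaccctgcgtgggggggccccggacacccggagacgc
Mag: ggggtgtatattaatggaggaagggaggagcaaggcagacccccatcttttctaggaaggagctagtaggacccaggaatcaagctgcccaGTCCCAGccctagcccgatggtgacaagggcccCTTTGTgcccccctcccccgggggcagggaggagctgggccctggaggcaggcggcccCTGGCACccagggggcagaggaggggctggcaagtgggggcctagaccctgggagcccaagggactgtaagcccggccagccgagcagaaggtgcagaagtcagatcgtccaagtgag
Opalin: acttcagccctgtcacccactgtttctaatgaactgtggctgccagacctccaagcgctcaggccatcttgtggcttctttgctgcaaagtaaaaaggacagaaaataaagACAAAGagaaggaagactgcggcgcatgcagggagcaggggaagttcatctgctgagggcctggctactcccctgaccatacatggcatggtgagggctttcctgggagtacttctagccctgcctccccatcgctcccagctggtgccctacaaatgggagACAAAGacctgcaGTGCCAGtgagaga
Cldn11: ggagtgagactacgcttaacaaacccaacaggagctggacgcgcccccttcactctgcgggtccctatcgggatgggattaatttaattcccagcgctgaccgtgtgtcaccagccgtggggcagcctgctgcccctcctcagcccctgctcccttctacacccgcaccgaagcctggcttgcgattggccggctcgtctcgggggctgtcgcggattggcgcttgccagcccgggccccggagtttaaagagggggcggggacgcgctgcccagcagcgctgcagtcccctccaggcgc

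Over whole slices, Mbp stood at 26.9 UMIs per 10000 at rest, 31.0 at 2 dpi, 39.0 and 30.4 at 7 dpi, 33.5 and 48.2 at 21 dpi, and 29.1 and 32.6 in the deleter slices. Mobp stood at 6.19 at rest, 11.03 at 2 dpi, 9.79 and 6.70 at 7 dpi, 8.58 and 10.4 at 21 dpi, and 7.84 and 8.14 in deleter. For both genes the slices at 7 and 21 dpi overlapped, both deleter slices lay below both WT slices at 21 dpi, and slice 2 at 21 dpi had the highest Mbp of all 8. Between whole slices at 21 and 7 dpi, log2 differences of the 9 members ran from 0.00 (Cldn11) to 0.40 (Ermn), and none passed edgeR's quasi-likelihood test after Benjamini-Hochberg adjustment over 16580 genes (0.00603% of all genes rose and 0.00% fell). No member had an unadjusted p under 0.05 (lowest 0.107), against 2045 of all genes, and DESeq2 called no member. Between deleter and WT at 21 dpi the differences ran from -0.54 to -0.16. The 2 members Mag and Mog had an unadjusted edgeR p under 0.05 (0.0254 and 0.0293), as had 386 of all 16580 genes. None passed after adjustment, where no gene at all was called (0.00% in either direction). How much white matter a slice held was not controlled, and within spots, fewer oligodendrocytes and less RNA per oligodendrocyte cannot be told apart.

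At 2 dpi the members did not move as a block relative to the slice at rest. Cldn11 stood at 5.05 UMIs per 10000 (4.93 to 5.18) at 2 dpi and 1.92 (1.85 to 1.98) at rest, a ratio of 2.64. Mag, Ermn and Mobp had ratios of 1.88, 1.85 and 1.78. Opalin alone was lower at 2 dpi, at 0.771 (0.724 to 0.820) against 0.815 (0.772 to 0.860), with overlapping intervals. With 1 slice at each time these differences have no replicate check.

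The slice at 2 dpi also held many spots with little RNA, and there the myelin genes split by gene. In its 375 spots with under 1000 UMIs, Mbp stood at 48.8 UMIs per 10000 (46.0 to 51.6), against 29.6 (29.3 to 29.9) in the 715 spots with 5000 or more, a ratio of 1.65. Mobp stood at 21.6 against 10.2, a ratio of 2.13. The other 7 members were all lower in the RNA-poor spots, with ratios from 0.328 (Ermn) and 0.345 (Mal) through 0.548 (Cldn11), 0.614 (Cnp), 0.689 (Mag) and 0.818 (Mog) to 0.911 (Opalin), though for Opalin and Mog the intervals of the 2 classes overlapped. Mbp and Mobp together made up 86.9% of the members' UMIs in the RNA-poor spots (85.3% to 88.4%, exact binomial), 84.5% in spots between these classes and 67.4% in those with 5000 or more. The same share was 73.6% in the slice at rest. Mbp and Mobp were thus the only members that were higher where a spot had little RNA at 2 dpi, a split noticed after the values had been seen and not tested. The whole-slice share at 2 dpi was 69.8%, below that at rest. The other slices had 0 to 33 spots with under 1000 UMIs. In those 3 spots at rest the share was 88.9%, of 9 UMIs, and in the 33 of 21 dpi slice 1 it was 63.4%, of 41 UMIs. In the class between, 7 dpi slice 2 had 65 spots with a split in the same directions. Mbp stood at 35.8 against 30.3 in spots with 5000 or more, and Mobp at 7.66 against 6.68. The other 7 members were lower, and the share was 81.7% against 73.1%. Intervals of the 2 classes overlapped there for Mobp, Cldn11, Ermn and Opalin. No other slice had Mbp and Mobp both higher and all others lower in that class.

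**Figure D1:**
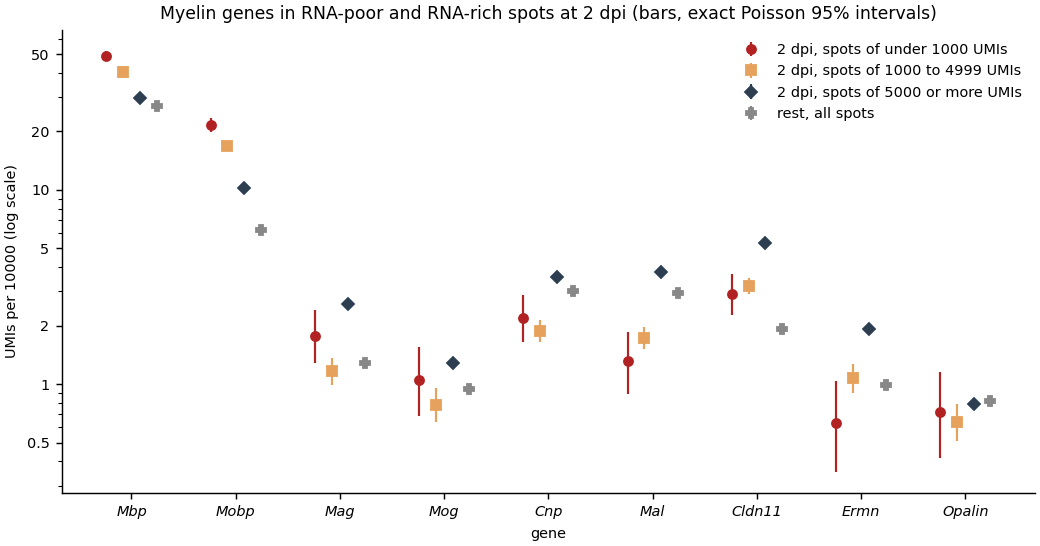
Levels of the 9 myelin genes at 2 dpi (vertical, UMIs per 10000, log scale; bars are exact Poisson 95% intervals) in spots of 3 classes of total UMI count, by gene (horizontal). Mbp and Mobp sit higher in the spots with under 1000 UMIs, at 48.8 and 21.6, than in those with 5000 or more, at 29.6 and 10.2, and the other 7 genes sit lower.

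Over the spots of a slice the members were unevenly spread, and neighbouring spots were alike. The tenth of spots with most myelin UMIs held 33.5% (2 dpi) to 55.4% (rest) of all, after spots had been thinned to 1000 UMIs. This left out shallower spots, 375 of 1726 at 2 dpi and 0 to 29 in the other slices. Summed over the 9 genes, Moran's I, which is near 0 for values scattered at random over spots and near 1 where neighbours are alike, was 0.837 at rest, 0.655 at 2 dpi, and between 0.722 and 0.869 in the 6 later slices. The coefficient of variation over thinned spots was 1.69 at rest, 1.03 at 2 dpi and 1.27 to 1.53 later, so it was lowest at 2 dpi, where the 375 RNA-poor spots are not part of it. Members also varied together: of 36 pairs, Mbp and Mobp had the highest correlation over spots (median r = 0.869 over 8 slices) and Ermn and Opalin the lowest (0.592). Correlations over spots share the library and its depth, and they were lowest at 2 dpi, where the median pair had r = 0.334 over 1726 spots against 0.548 to 0.758 in the other slices.

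**Figure D2:**
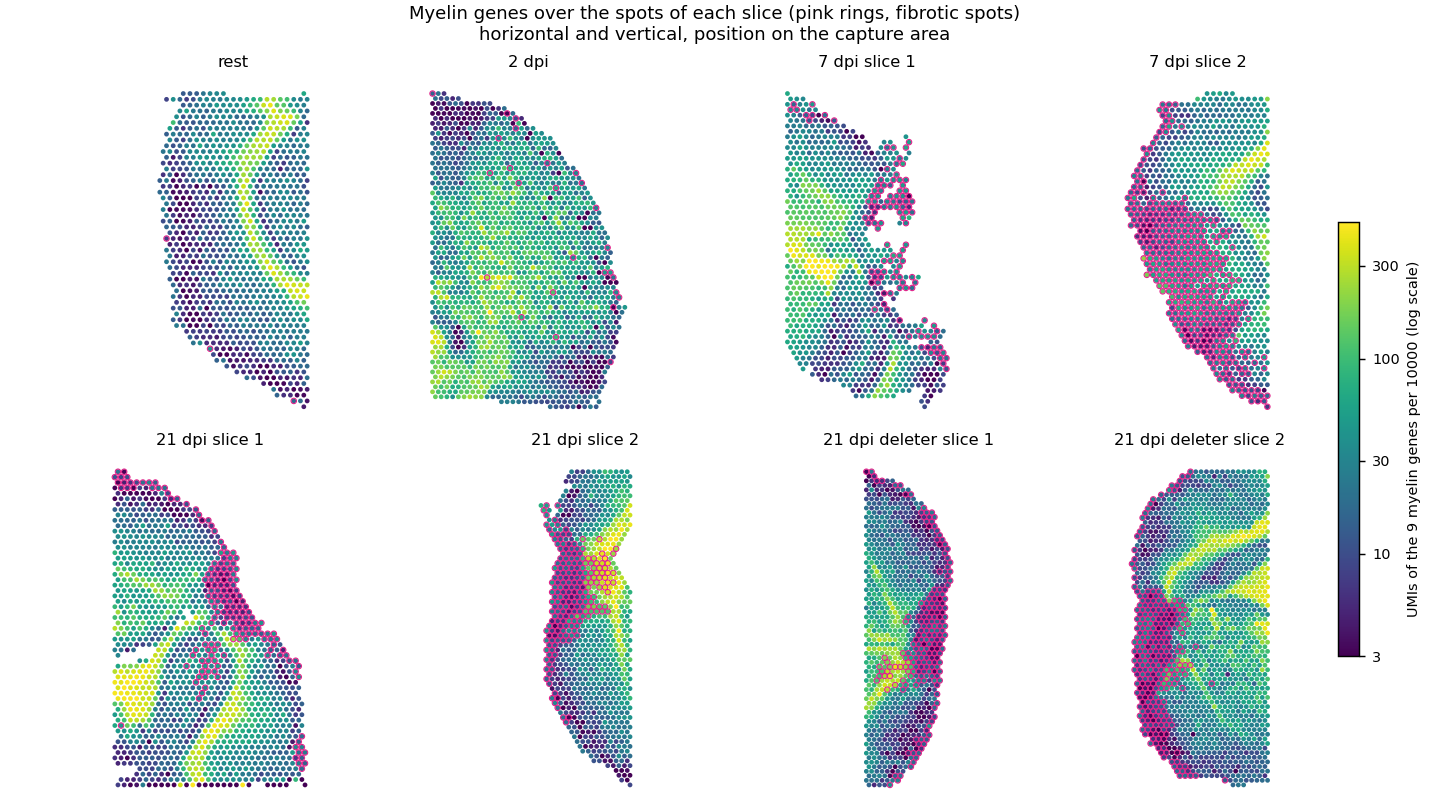
Spots of each slice at their position on the capture area, coloured by the summed UMIs of the 9 myelin genes per 10000, with fibrotic spots ringed in pink. At rest 117 of 118 rich spots, those with at least 100 member UMIs per 10000, touch in 1 group. Fibrotic spots of WT slice 2 at 21 dpi and of deleter slice 1 include touching groups of 30 and 16 rich spots.

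Outside the 9 members, genes most like their sum over spots included Bcas1 (median r = 0.740 over 8 slices), Plekhb1 (0.739), Trf (0.739), Qdpr (0.735), Tspan2 (0.732), Cryab (0.687), Scd2 (0.680), Sept4 (0.673) and Car2 (0.670). Over the 10478 genes compared the median was -0.01. Trf encodes the iron carrier transferrin, and Car2 a carbonic anhydrase found in oligodendrocytes.

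To ask how myelin genes lie around scar tissue, spots with at least 5 Col1a1 UMIs per 10000 were called fibrotic, since Col1a1 encodes collagen 1 of the fibroblasts that fill the lesion. Spots 1 to 2 steps away on the hexagonal grid are called adjacent, and those 3 or more steps away distant. The slices at 7 dpi had 112 and 392 fibrotic spots, those at 21 dpi 170 and 203, and the deleter slices 193 and 274. The slice at rest had 3 and that at 2 dpi 26, and both were left out of tests.

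At 7 dpi the myelin genes were low in fibrotic spots and stayed low in the tissue beside them. Mbp stood at 13.1 and 15.8 UMIs per 10000 in fibrotic spots of slices 1 and 2, at 15.7 and 18.7 in adjacent spots, and at 44.2 and 45.9 in distant spots. Fibrotic spots thus held 29.6% and 34.5% of the distant level, and the fibrotic and distant values of the 2 slices did not overlap. Within each slice Mbp was also lower in fibrotic than in adjacent spots, by a smaller margin. Mal was the lowest relative to distant tissue in the fit, at 0.756 and 0.915 in fibrotic spots, 0.960 and 1.05 in adjacent spots and 4.44 and 3.50 in distant spots. Cldn11 kept most, at 2.77 and 2.04 in fibrotic spots against 4.63 and 4.42 in distant spots, which is 59.9% and 46.2%. Per spot, without scaling to total RNA, the summed members fell from 138 and 136 UMIs in distant spots to 17.5 and 29.3 in fibrotic spots. Total RNA was lower there too, with medians of 4923.5 and 9206.5 UMIs per fibrotic spot against 16328 and 17569 per distant spot. The fall per spot therefore contains this difference in depth. The slice taken as rest, without injury, also had lower levels in and around its few fibrotic spots. Its summed members stood at 19.3 UMIs per 10000 in 3 fibrotic spots, 6.65 in 32 adjacent spots and 45.7 in 982 distant spots. Median totals there were 7183, 6838.5 and 16318 UMIs per spot. A low level in and beside fibrotic spots was thus seen in this uninjured slice too. Spots were also placed in rings counted inward, with ring 1 at the tissue edge. The median ring was 1 in fibrotic and 4 in distant spots of 7 dpi slice 1. It was 4 in both zones of slice 2, and 1 and 5 at rest. From ring 3 inward, slice 1 had too few fibrotic spots for a sum. How much of the difference at 7 dpi goes with the tissue edge and how much with fibrosis was not tested.

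Of the 9 members, 8 were lower in fibrotic than in distant spots at 7 dpi, where 23.1% of all 14503 genes tested were lower and 24.2% higher. Among compact myelin genes, Mbp (GRCm38 chr18:82475146-82585637, plus strand) fell by 1.57 on the log2 scale (SE 0.44, edgeR adjusted p = 0.0108), Mobp by 1.77 (SE 0.49, adjusted p = 0.0104) and Mal by 2.13 (SE 0.47, adjusted p = 0.0026). The surface and adhesion genes Mag and Mog fell by 1.55 and 1.79 (edgeR adjusted p = 0.0069 and 0.0100). Cnp fell by 1.46, Ermn by 2.01 and Opalin by 1.56 (edgeR adjusted p = 0.0091, 0.0127 and 0.0121). Cldn11 had a log2 difference of -0.86 (SE 0.36) and did not pass (edgeR adjusted p = 0.0661). The median of the members was -1.57, and that of all genes -0.02. For fits with a slice left out, the shares of all genes called are not given here. With a single slice left at 7 dpi, 1 member passed, Mag without slice 1 (-1.72) and Mal without slice 2 (-2.47), and all 9 differences stayed negative.

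Adjacent spots at 7 dpi were lower than distant spots for 5 of the 9 members (6.81% of all genes were lower and 12.1% higher). These were Mbp (log2 difference -1.34), Mobp (-1.56), Mog (-1.66), Mal (-1.92) and Opalin (-1.28), with edgeR adjusted p from 0.0126 (Mal) to 0.0496 (Mbp). Mag, Cnp and Ermn missed the threshold narrowly (edgeR adjusted p = 0.0604, 0.0669 and 0.0521) and Cldn11 more widely (0.132). All 9 differences were negative. No member passed without either slice at 7 dpi, 3 passed without deleter slice 1, all 9 passed without either WT slice at 21 dpi, and Mal alone passed when the slice was not a block or when distant spots were limited to those with cortical neuron RNA. The shares of all genes called in these alternative fits are not given here, so these counts are not set against other genes. Fibrotic and adjacent spots of the same slices were compared after the data had been seen. They differed by -0.44 to -0.05 (log2), none past the threshold in edgeR (5.52% of genes were higher and 6.84% lower), and no member had an unadjusted p under 0.05.

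By finer distance, the level at 7 dpi rose stepwise away from the fibrotic spots. In slice 1 the summed members went from 23.1 UMIs per 10000 in fibrotic spots and 23.1 at 1 step through 32.5 at 2 steps and 44.4 at 3 to 4 steps to 67.1 at 5 to 7 steps and 91.4 at 8 or more. In slice 2 they went from 26.1 through 29.8, 32.4, 56.2 and 81.6 to 87.3. Both slices reached their highest level in the farthest class, and distance from the fibrotic spots cannot be told apart from position in the brain.

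**Figure D3:**
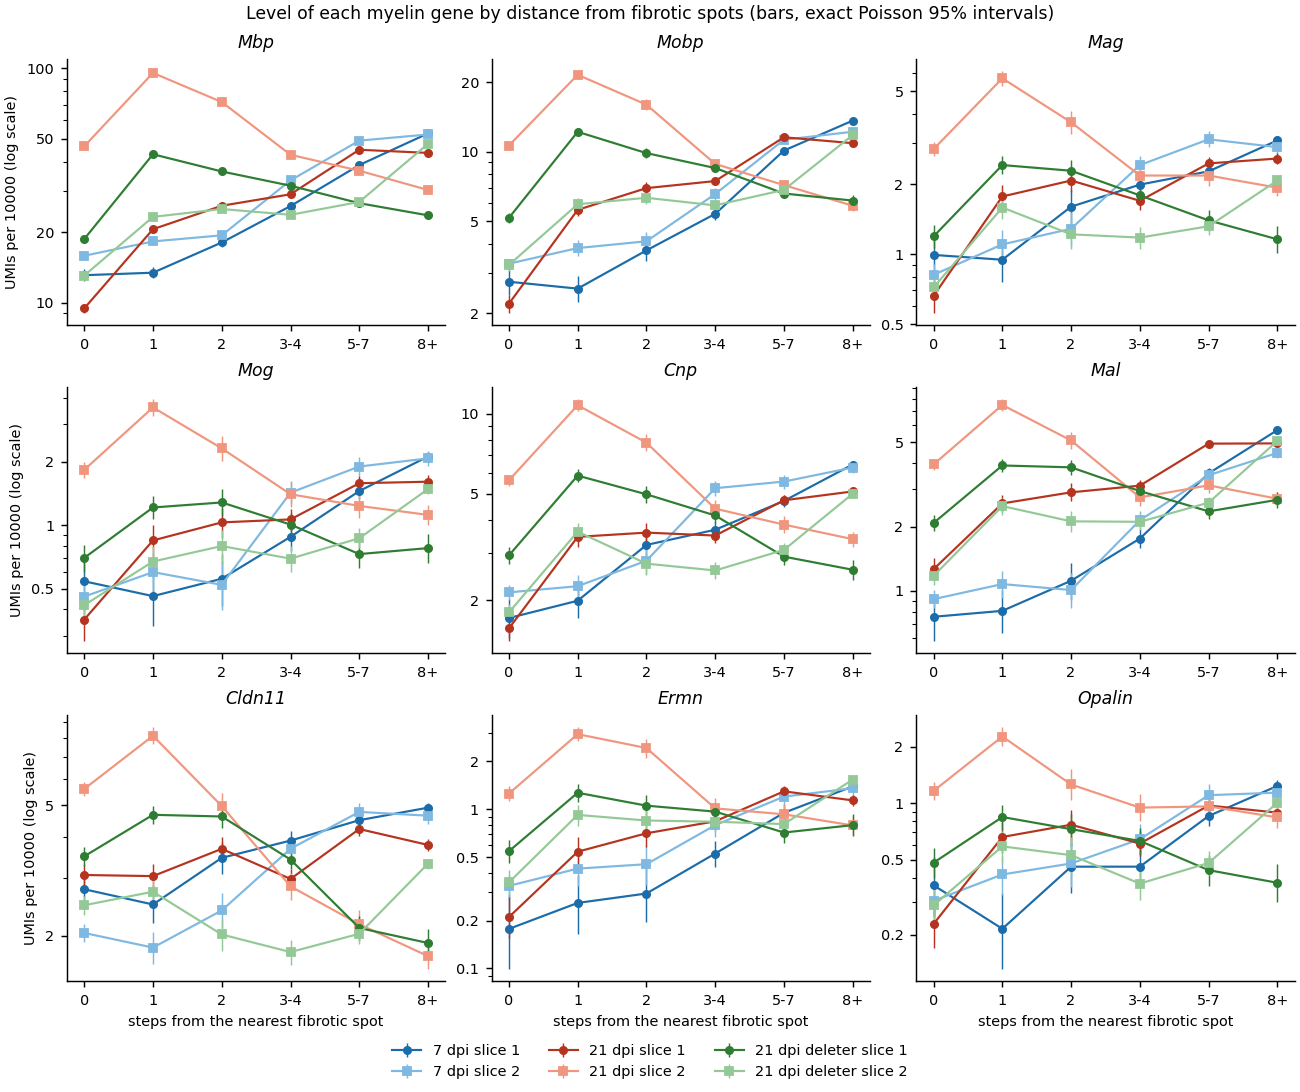
Level of each of the 9 myelin genes (vertical, UMIs per 10000, log scale; bars are exact Poisson 95% intervals) in classes of distance from the nearest fibrotic spot (horizontal, steps on the spot grid), with a line for each slice. At 7 dpi all lines end higher than they start, whereas 21 dpi slice 2 and deleter slice 1 peak 1 step away, at 95.7 and 43.0 for Mbp (2 steps for Mog in the latter).

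At 21 dpi the 2 WT slices went opposite ways. In slice 1, Mbp stood at 9.44 UMIs per 10000 in fibrotic spots, 23.1 in adjacent spots and 40.7 in distant spots, and the summed members held 27.3% of the distant level in fibrotic spots. In slice 2, Mbp stood at 46.5 in fibrotic spots, 86.3 in adjacent spots and 35.2 in distant spots, and the summed members held 142% of the distant level in fibrotic spots and 252% in adjacent spots. All 9 members were below the distant level in fibrotic spots of slice 1, and none was in slice 2. The deleter slices went opposite ways in adjacent spots but not in fibrotic spots, where Mbp lay below the distant level in both. Mbp was at 18.7, 40.2 and 27.4 in fibrotic, adjacent and distant spots of deleter slice 1, and at 13.0, 24.1 and 38.6 in deleter slice 2. In fibrotic spots 8 of the 9 members were below the distant level in deleter slice 1 and all 9 in deleter slice 2. The summed members held 75.7% and 36.7% of the distant level in fibrotic spots of deleter slices 1 and 2, and 152% and 65.1% in adjacent spots.

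With slices so different, no member was called between fibrotic and distant spots at 21 dpi (28.6% of all genes were lower and 28.0% higher). Log2 differences ran from -0.96 for Mbp (edgeR adjusted p = 0.0916) to 0.48 for Cldn11 (0.278), and no member had an unadjusted p under 0.05, against 8845 of all genes. Without slice 2 at 21 dpi, log2 differences of all members but Cldn11 ran from -2.36 to -1.50, and without slice 1 that of Cldn11 was 1.39. Without the filter on low counts all 9 were called, with Cldn11 higher (0.49) and the others lower (-0.94 to -0.51). The share of all genes called without the filter is not given here. In deleter, Mbp fell by 1.11 and Mal by 1.12 (edgeR adjusted p = 0.0445 and 0.0453), where 27.4% of all genes were lower and 29.1% higher, and Cldn11 stood at 0.13. For the alternative fits of deleter the shares of all genes called are not given here, so their counts are not set against other genes. The count of 2 members in deleter became 8 without either WT slice at 21 dpi, 1 (Mal) without deleter slice 1, and 0 without deleter slice 2, without either slice at 7 dpi, with DESeq2, or when the slice was not a block.

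Between adjacent and distant spots no member was called at 21 dpi (4.96% of genes lower, 9.02% higher; log2 0.04 to 0.65) or in deleter (4.19% lower, 10.6% higher; -0.20 to 0.31), by edgeR, and no member had an unadjusted p under 0.05 in either. The change of the fibrotic-to-distant difference from 7 to 21 dpi was tested as an interaction. It was positive for all 9 members, from 0.61 (Mbp) to 1.39 (Mal), and none passed in edgeR (0.290% of all genes rose and 0.0414% fell); Cldn11 alone had an unadjusted p under 0.05 (0.0213, adjusted p = 0.271). The same test for adjacent spots was added after the data had been seen. It gave 1.37 (Mbp) to 2.00 (Mal), with all 9 members at an unadjusted p from 0.0075 to 0.046, as had 1344 of all genes, and no gene passed adjustment in edgeR (0.00% in either direction). With both slices at 21 dpi in the fit, a difference between 7 and 21 dpi was thus not shown for any member. Without 21 dpi slice 1, which leaves slice 2 alone, the interaction for fibrotic spots ran from 1.93 (Opalin) to 2.60 (Mal). Differences of adjacent from distant spots at 21 dpi then ran from 1.01 (Opalin) to 1.65 (Cldn11). Without slice 2 instead, the interaction for fibrotic spots ran from -0.49 (Mbp) to 0.62 (Cldn11). Adjacent spots at 21 dpi then differed from distant spots by -0.84 (Ermn) to -0.15 (Cldn11).

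**Figure D4:**
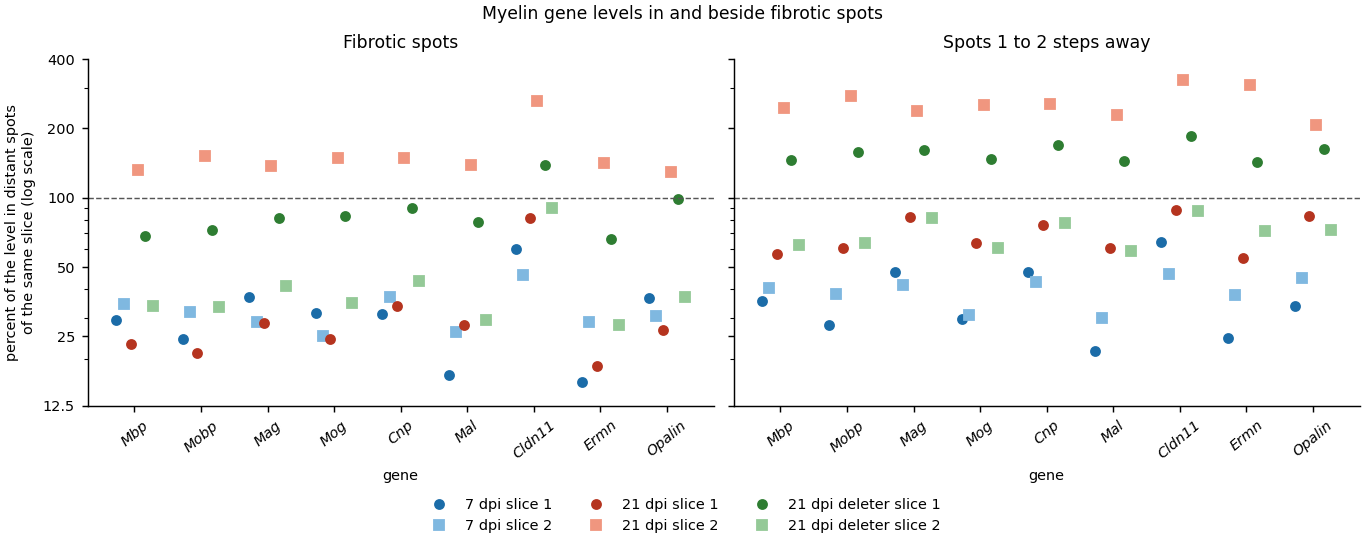
Level of each myelin gene (horizontal) in fibrotic and in adjacent spots as a percentage of its level in distant spots of the same slice (vertical, log scale), with a point for each of 6 slices. Both 7 dpi slices lie below 100% for every gene, 21 dpi slice 2 lies above it for every gene, and Cldn11 is the highest gene of each slice in fibrotic spots.

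The gap between the WT slices at 21 dpi varied with the Col1a1 level of the spot. Where a spot had 20 or more Col1a1 UMIs per 10000, the summed members stood at 9.92 and 15.3 UMIs per 10000 at 21 dpi and at 9.64 and 9.70 in deleter, against 23.2 and 24.2 at 7 dpi. Where it had 5 to 10, they stood at 30.6 and 158 at 21 dpi, 80.7 and 45.4 in deleter, and 26.4 and 30.6 at 7 dpi. At 10 to 20 the gap at 21 dpi was as wide, at 13.2 and 75.7, with 22.4 and 16.1 in deleter and 17.998 and 25.783 at 7 dpi. In the densest class all 4 slices at 21 dpi thus lay below both slices at 7 dpi, whereas in the 5 to 10 class none of them did. The densest class held 21 and 196 spots at 7 dpi. Total RNA differed as well, with medians over all fibrotic spots of 4923.5 and 9206.5 UMIs at 7 dpi. They were 10828 and 13879 at 21 dpi and 11111 and 12233 in deleter. Whether this order holds per spot, without scaling to total RNA, was not tested. From the 5 to 10 class to the densest, the level went down by a small margin in both slices at 7 dpi and several-fold in all 4 at 21 dpi. With fibrotic spots limited to at least 10 Col1a1 UMIs per 10000, 8 of 9 members were lower in edgeR. This held at 7 dpi, at 21 dpi (log2 -2.39 to -1.80) and in deleter (-2.68 to -1.77). Cldn11 was called in none, at -0.31 at 21 dpi and -0.33 in deleter. The share of all genes called at this threshold is not given here, so these counts are not set against other genes.

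**Figure D5:**
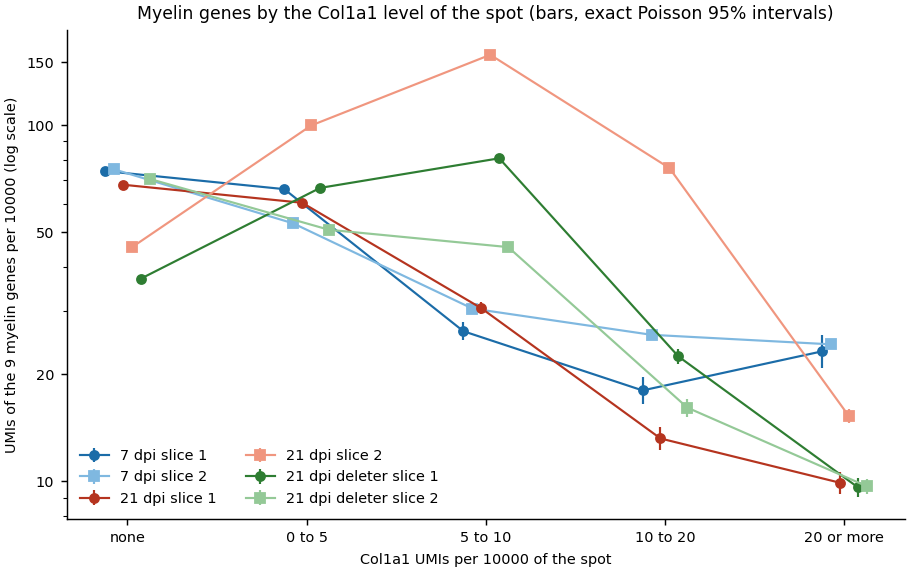
Summed UMIs of the 9 myelin genes per 10000 (vertical, log scale; bars are exact Poisson 95% intervals) by the Col1a1 level of the spot (horizontal, UMIs per 10000), with a line for each slice. At 20 or more the slices at 21 dpi and deleter lie between 9.64 and 15.3, below both at 7 dpi, and 21 dpi slice 2 peaks at 158 in the 5 to 10 class.

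Fibrotic spots rich in myelin RNA, here those with at least 100 member UMIs per 10000, numbered 0 of 112 and 6 of 392 at 7 dpi, 2 of 170 and 45 of 203 at 21 dpi, and 20 of 193 and 9 of 274 in deleter. In 21 dpi slice 2, 30 of the 45 formed 1 touching group, and in deleter slice 1, 16 of 20 did. In these 2 slices the rich spots had less Col1a1 than other fibrotic spots, with a median of 7.95 against 31.2 UMIs per 10000 in 21 dpi slice 2 and of 7.09 against 20.1 in deleter slice 1, as had the 9 of deleter slice 2 (5.90 against 21.0) and the 2 of 21 dpi slice 1 (6.47 against 12.2). The 6 rich spots of 7 dpi slice 2 went the other way, at 85.7 against 19.98. In 21 dpi slice 2 and deleter slice 1 they also held fewer macrophage and microglia UMIs, 18.2 against 41.0 per 10000 and 12.6 against 38.0, over a list of 7 genes (Cx3cr1, P2ry12, Tmem119, Cd68, Lgals3, Gpnmb and Trem2). Astrocyte UMIs were higher in them, at 53.8 against 18.6 and at 57.5 against 27.4, over Aqp4, Gja1, Slc1a2, Aldoc and Gfap. Both directions were the same in the few rich spots of 7 dpi slice 2, 21 dpi slice 1 and deleter slice 2. Macrophage and microglia UMIs there were 20.4 against 43.1, 30.1 against 45.8 and 26.2 against 32.4. Astrocyte UMIs there were 26.6 against 19.5, 44.8 against 27.6 and 53.3 against 26.9. Rich spots of the distant zone also had more astrocyte UMIs than other distant spots in every slice. The values were 39.9 against 26.1 in 21 dpi slice 2 and 56.0 against 31.4 in deleter slice 1. Macrophage and microglia UMIs went the other way there, higher in rich distant spots of every slice. They were 5.57 against 2.03 and 9.52 against 1.96 in the same 2 slices. A spot can hold several cells, so these values describe mixed regions.

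Cldn11 kept the highest share of its distant level of all 9 members in the fibrotic spots of every slice. The shares were 59.9% and 46.2% at 7 dpi, 81.6% and 263% at 21 dpi, and 139% and 90.1% in deleter, against a median of the 9 members of 31.2% and 30.7%, 26.7% and 141%, and 81.4% and 34.8%. With 20 or more Col1a1 UMIs per 10000, Cldn11 still held 80.6% and 45.1%, 67.1% and 86.0%, and 89.4% and 58.5% of its distant level, where the median member held 29.2% and 25.9%, 10.9% and 24.8%, and 16.6% and 12.1%. Cldn11 was the highest member in that class in all 6 slices. In the 5 to 10 class it was the highest in 4 of 6, with Opalin the highest in 7 dpi slice 2 and deleter slice 1, where Ermn (50.2% against 45.4%) and Mag (206% against 204%) were also above Cldn11. This order was noticed after the values had been seen and was not tested.

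At 7 dpi most other genes of the sheath were lower too. There, 17 of 20 other myelin genes were lower in fibrotic than in distant spots (median log2 -1.61), with Gjb1, a gap junction protein, at -2.14 and Hapln2, a matrix link protein of the node, at -2.01. Of 16 enzymes of myelin lipid synthesis, 13 fell and 1 rose. Fa2h, which hydroxylates the fatty acids of myelin lipids, was at -1.79, and Lss, of cholesterol synthesis, at -1.58. Of 10 lineage factors, 4 fell and none rose, among them Nkx6-2 (-1.50) and Myrf (-1.41), the regulators of myelin gene expression. At 21 dpi 5 of the 20 other myelin genes fell (Omg -1.81, Hapln2 -1.42), a share below the 28.6% of all genes, and 9 of the 16 lipid enzymes fell while 2 rose. Of the lineage factors none fell and 1 rose at 21 dpi (Tcf7l2 1.48). All these calls are edgeR's at an adjusted p under 0.05, and the background shares above apply.

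Genes of oligodendrocyte precursors were mixed. At 7 dpi 4 of 10 were higher in fibrotic spots (Matn4 2.16, Vcan 2.12) and 2 lower, where 24.2% of all genes were higher and 23.1% lower, and at 21 dpi 5 were higher (Matn4 4.07, Pdgfra 1.81) and 1 lower, where 28.0% were higher and 28.6% lower. Pdgfra and Vcan are also used by fibroblasts, and the 4 fibroblast genes were all higher in fibrotic spots, as the choice of spots by Col1a1 fixes for that gene. In adjacent spots, 8 of 10 precursor genes were higher than in distant spots at 21 dpi (Matn4 1.72, C1ql1 1.57) and none lower, where 9.02% of all genes were higher. At 7 dpi 3 of 10 were higher (Matn4 1.37, Cspg4 1.26) and in deleter 4 of 10, where 12.1% and 10.6% of all genes were higher. Cspg4 also served in the study as a marker of mural cells, which are pericytes and smooth muscle cells. Genes of newly formed oligodendrocytes were higher beside the scar at 21 dpi for 2 of 7, Itpr2 (1.22) and Gpr17 (1.18). In deleter 1 of 7 was higher (Itpr2 1.02). The shares of all genes were 9.02% and 10.6%, and counts over 7 genes are too few to set apart from them. Which cells held this RNA was not tested. Of 7 genes known from injury-associated oligodendrocytes, 5 were higher in adjacent spots at 21 dpi (Serpina3n 2.11, H2-D1 1.67) and 5 in deleter (Serpina3n 2.15, Socs3 2.05), and astrocytes or microglia use these genes as well.

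Neuronal and macrophage genes also differed between the zones. In fibrotic spots all 7 neuronal genes were lower and 6 of 7 macrophage and microglia genes higher at 7 dpi, at 21 dpi and in deleter. Astrocyte genes fell for 2 of 5 at 7 dpi (Aldoc -1.48, Slc1a2 -1.37), while at 21 dpi 3 rose (Gfap 1.74, Aqp4 1.68) and 2 fell. Of all genes, 23.1% were lower and 24.2% higher at 7 dpi, and 28.6% lower and 28.0% higher at 21 dpi. In deleter 27.4% were lower and 29.1% higher. The astrocyte counts, over 5 genes, are too few to set apart from these shares. Schwann cells make some of the same proteins in peripheral nerve. Their 5 genes together stood at 0.06 to 0.40 UMIs per 10000 in all 18 zones of the 6 slices. At 7 dpi 2 of the 5 were tested, of which 1 was lower in fibrotic spots (log2 -1.24) and 1 higher (4.72); the higher one also passed at 21 dpi (4.60) and in deleter (5.04). The part that the mixture of other cells had in the members' levels was not tested.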

How the data were processed

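Visium libraries of 10 µm fresh-frozen brain slices were aligned by the authors to mm10 with Space Ranger 2.0.0, and raw UMI counts per gene and spot were deposited without normalization. Spots over tissue were joined into connected pieces, each taken as 1 slice. The assignment of the pieces at rest and at 2 dpi followed an earlier analysis of these data. The members, gene lists and zone rule were chosen with earlier results of these data known. Counts were summed per slice and zone (18 sums, slice as a block, zone within group) or per slice (8 sums), and tested with edgeR 4.0.16 in R 4.3.3: filterByExpr, TMM, quasi-likelihood F test and Benjamini-Hochberg adjustment over all genes tested, threshold 0.05. Named genes were the 9 members, per comparison the 2 called genes of each list with the largest change, and the 10 most correlated genes. The fibrotic against distant test at 7 dpi was run on simulated counts of 14145 genes. Of these, 200 were changed, at a dispersion of 0.05 and without differences between slices. It recovered 24% of log2 changes of 1 and 97% of changes of 2, with 3.97% of calls false. In the data 24.2% of genes were called higher and 23.1% lower, so these rates may not carry over to it. Levels carry exact Poisson and shares exact binomial 95% intervals. Alternatives were DESeq2 1.42.0, no filter on low counts, other Col1a1 thresholds and zones, deeper spots, no block, and each slice left out. Single deposited spots were not used as replicates. Mbp promoter sequence was not used here. Some genes that the naming rule selects are not reported here.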

Additional observations from a re-analysis of the deposited data

Results flagged for a closer look

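In the spots of the slice at 2 dpi with under 1000 UMIs, which entered no test between groups, Mbp and Mobp made up 86.9% of the UMIs of the 9 members. The share was picked out because it lies above the 73.6% of the whole slice at rest. Over the whole slice at 2 dpi it was 69.8%, below rest, and in the 3 spots at rest with under 1000 UMIs it was 88.9%, of 9 UMIs. There is 1 slice at each time, and none of these differences was tested.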

How the results depend on the processing

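Of 1242 comparisons of a member's log2 difference with an alternative setting, 70 lost the call, 97 gained it and 68 turned direction. A turn was counted only where either fit called the member or the value moved by more than its standard error. The other 1007 kept their side of the threshold, and smaller turns with no call in either fit are among them. The turns listed below follow the same rule. Where no cause is named, the cause was not tested. The numbers of members called, of 9, moved as follows, and the shares of all genes called under these settings are not given here. Fibrotic against distant spots at 7 dpi gave 8, and 1 in interior spots, where slice 1 had too few fibrotic spots for a sum; leaving out 1 slice gave 1 to 9. At 21 dpi the number was 0, and 8 with at least 10 Col1a1 UMIs per 10000, 9 without the filter on low counts, and 0 to 8 with a slice left out. In deleter it was 2, and 8 at the stricter Col1a1 level, 8 without the filter, 4 in outer spots, 0 with DESeq2, with distant spots at 6 or more steps, in interior spots, with no replicate block, or with distant spots limited to cortical neuron spots (a setting added after seeing the data), and 0 to 8 with a slice left out. The 21 minus 7 dpi difference gave 0, and 8 without the filter and 0 to 8 with a slice left out. Adjacent against distant spots at 7 dpi gave 5, and 1 with cortical neuron spots as distant, 1 in interior spots, 9 without the filter, 1 with no replicate block, 2 in outer spots and 0 to 9 with a slice left out; at 21 dpi it gave 0, and 1 without the filter and 0 to 7 with a slice left out. Slices bear no paired numbers across groups, and the block is the slice itself.

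With at least 10 Col1a1 UMIs per 10000, these log2 differences turned negative: Cldn11 in fibrotic spots at 21 dpi (-0.31) and in deleter (-0.33); the 21 minus 7 dpi difference of Mbp (-0.61), Mobp (-0.35), Mag (-0.65), Mog (-0.0703), Cnp (-0.27), Ermn (-0.19) and Opalin (-0.50); and adjacent spots at 21 dpi for Mbp (-0.55), Mobp (-0.57), Mag (-0.24), Cnp (-0.16), Ermn (-0.50) and Opalin (-0.10). With distant spots alone, 21 against 7 dpi turned negative for Mbp (-0.24), Mobp (-0.31), Mag (-0.31), Mog (-0.39), Cnp (-0.42), Mal (-0.10), Cldn11 (-0.61), Ermn (-0.16) and Opalin (-0.17), and deleter against 21 dpi turned positive for Mobp (0.0440) and Ermn (0.13).

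Leaving out 1 slice at a time turned direction as follows, with lowest and highest log2 differences. In fibrotic spots at 21 dpi, the lowest without slice 2 and the highest without slice 1 were -2.05 and 0.40 for Mbp, -2.18 and 0.61 for Mobp, -1.76 and 0.45 for Mag, -1.99 and 0.58 for Mog, -1.50 and 0.58 for Cnp, -1.78 and 0.46 for Mal, -0.24 and 1.39 for Cldn11, -2.36 and 0.50 for Ermn, and -1.85 and 0.36 for Opalin. The 21 minus 7 dpi difference ran from -0.49 to 1.97 for Mbp, -0.41 to 2.38 for Mobp, -0.21 to 2.01 for Mag, -0.19 to 2.38 for Mog, -0.0444 to 2.04 for Cnp, -0.36 to 2.51 for Ermn and -0.29 to 1.93 for Opalin. Adjacent spots at 21 dpi ran from -0.79 to 1.25 for Mbp, -0.70 to 1.43 for Mobp, -0.26 to 1.21 for Mag, -0.63 to 1.30 for Mog, -0.36 to 1.31 for Cnp, -0.70 to 1.16 for Mal, -0.15 to 1.65 for Cldn11, -0.84 to 1.59 for Ermn and -0.24 to 1.01 for Opalin. In deleter they ran from -0.72 to 0.49 for Mbp, -0.69 to 0.60 for Mobp, -0.33 to 0.63 for Mag, -0.76 to 0.50 for Mog, -0.39 to 0.70 for Cnp, -0.80 to 0.48 for Mal, -0.22 to 0.83 for Cldn11, -0.52 to 0.46 for Ermn and -0.49 to 0.65 for Opalin. Whole slices at 21 against 7 dpi ran from -0.0489 to 0.45 for Mbp, -0.0482 to 0.47 for Mobp, -0.0507 to 0.39 for Mag, -0.0902 to 0.38 for Mog, -0.13 to 0.26 for Cnp, -0.20 to 0.23 for Cldn11 and -0.0310 to 0.57 for Opalin, and deleter against 21 dpi from -0.40 to 0.13 for Ermn. A lone slice was assumed to vary like the other groups.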
